A study of Rattus norvegicus with 4 samples.

Results

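Lipocalin 2 and 5 other antimicrobial genes of myeloid granules and cytosol were followed in NR8383 cells, an established line of rat alveolar macrophages first obtained by washing out a lung. The 6 genes were Lcn2, S100a8, S100a9, Camp, Ltf and Mpo, and their probes were found by the gene name printed in the array files. This gave 8 probes of the 45598 on the array and 6 of the 18857 genes with a symbol. The genes were chosen by measured values of these arrays, namely the spread of Lcn2 between arrays and the detection of Camp and Mpo, so those values are given as a description. The series holds 1 group of 4 samples, called submerged control here: cells after 20 passages in medium with 15% serum and 2 mM glutamine, with no agent, allele or second condition. The growth protocol describes a mixed culture, part adherent and part floating. The design text gives 4 h in the submerged state and the treatment protocol 48 h from seeding, and which applies to the RNA was not settled. The design text calls the samples biological replicates, without saying whether cultures were started separately, so any p-value measures only the spread between these samples.

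Lipocalin 2 is a small secreted protein that binds bacterial siderophores and so withholds iron from bacteria; neutrophils store it in secondary granules, and macrophages and epithelial cells make it in response to cytokines and bacterial products. S100A8 and S100A9 pair to form calprotectin, a cytosolic protein of neutrophils and monocytes that chelates zinc and manganese. Camp encodes cathelicidin, an antimicrobial peptide precursor, Ltf encodes the iron-binding protein lactoferrin, and both are secondary granule proteins. Mpo encodes myeloperoxidase, the haem enzyme of primary granules that makes hypochlorous acid and is transcribed mainly in granulocyte precursors. In the lung these proteins are known chiefly from neutrophils that enter inflamed airways.

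Each probe is a stretch of 60 bases on a single spot, so a value rests on these letters alone. The probes that carry the results, from the array files and written 5′ to 3′ in lower case with no part marked, are the following:
Lcn2: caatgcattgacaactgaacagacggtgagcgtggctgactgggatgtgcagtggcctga
S100a8 (mRNA probe): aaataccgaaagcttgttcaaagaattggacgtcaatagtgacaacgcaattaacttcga
S100a9: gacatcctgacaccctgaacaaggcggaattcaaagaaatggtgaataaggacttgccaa
Camp (mRNA probe): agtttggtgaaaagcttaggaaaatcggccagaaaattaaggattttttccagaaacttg
Camp (EST probe): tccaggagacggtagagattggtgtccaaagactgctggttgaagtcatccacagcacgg
Ltf: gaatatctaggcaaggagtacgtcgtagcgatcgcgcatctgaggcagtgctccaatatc
Mpo: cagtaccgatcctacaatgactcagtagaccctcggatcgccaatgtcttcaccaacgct
None shared a run of over 14 bases with any other probe on the array. In the coordinates of the files, on rn4, the Lcn2 probe lies at chr3:11511592-11511651 on the minus strand and the Mpo probe at chr10:76094059-76094118 on the plus strand. The S100a8 probe drawn from an mRNA record lies at chr2:182962328-182962387 and the S100a9 probe at chr2:182987647-182987706, 25.3 kb apart. Camp and Ltf share chromosome 8: the Camp probe from an mRNA record lies at chr8:114214987-114215046 and the Ltf probe at chr8:115438446-115438505, 1223 kb apart. The second Camp probe, drawn from an EST (a single-pass read of a cDNA clone), lies at chr8:114216548-114216607, 1501 bases from the first. Its coordinates run on the plus strand, while the RefSeq table of GRCr8 puts Camp on the minus strand. Of 15604 probes of curated transcripts that could be examined, 14849 (95.2%) ran along the strand of their gene, as did the other member probes with coordinates and a listed strand. No exon or UTR annotation of rn4 was used here. A second S100a8 probe, also from an EST, has no coordinates in the files.

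The 4 arrays were similar in scale and lay on 1 slide, scanned together, so no batch could be tested. In fluorescence units, the 75th percentile of an array's processed signal ran from 958.2 to 1489, a 1.55-fold range. Negative control spots had a median signal of 3.89 to 4.85 units, and the lowest signal called well above background was 16.7 to 20.3 units. A gene was called detected when at least 1 of its probes was well above background on all 4 arrays. Of 12 macrophage markers, 9 were detected on all arrays (75%), against 54.9% of all named genes, those with a symbol. Among them were Cd68 (4.74 ± 0.05), Spi1 (-0.43 ± 0.12), Cd14 (-2.91 ± 0.29) and Mertk (-4.18 ± 0.15). These are log2 levels relative to the array's 75th percentile (mean ± SD, n = 4, as are the levels below). Cd163 and Marco were not detected on any array and Adgre1 was on 1. Levels of different probes cannot be set against each other, and none are ranked.

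Of the 6 members, 3 were detected on all 4 arrays: Lcn2, Camp and Mpo. The same call was made for 10353 of the 18857 named genes (54.9%), so the members' share lies near the background. S100a8 was detected on 3 arrays, and S100a9 and Ltf on none.

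The Lcn2 probe had a processed signal of 5505, 23401, 3508 and 19772 units on replicates 1 to 4. Replicates 2 and 4 were high and replicates 1 and 3 were low, and every array lay far above the background. The software's own error was 10% of the signal on each array, and the spot's mean brightness was 95.3 to 642 times its local background. Relative to the array's 75th percentile the log2 levels were 2.06, 3.97, 1.57 and 4.37, with a mean of 2.99 ± 1.38 and a range of 2.79, or 6.94-fold. No repeat spot and no second probe exists for Lcn2, so the range rests on 1 spot per array. That spot was not marked as non-uniform, as a population outlier or as saturated on any array, and its pixels varied by 4.24% to 8.17% (CV). The 53 detected spots within 5 rows and columns of it deviated from their own means by a median of -0.05, -0.02, 0.02 and 0.06 (log2), against -0.93, 0.98, -1.42 and 1.37 for Lcn2. Spots around it therefore did not share its differences between arrays.

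**Figure D1:**
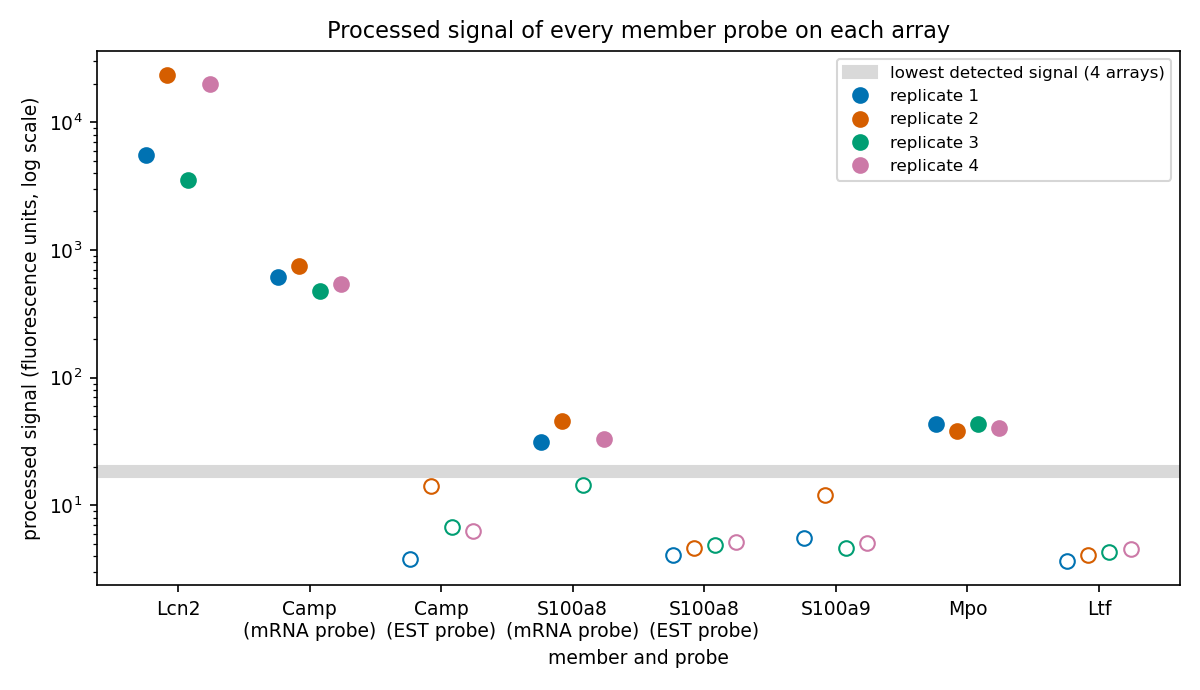
Processed signal in fluorescence units (log axis) of the 8 member probes on each of the 4 arrays, 1 point per array; filled points were well above background, and the grey band spans the lowest such signal, 16.7 to 20.3 units. Lcn2 spans 3508 to 23401 units, Camp (mRNA probe) 479 to 753, and Mpo 38.4 to 43.2, while Ltf lies below the band on every array; heights of different probes are not comparable.

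Cathelicidin was detected on every array through its mRNA probe, at 610, 753, 479 and 541 units. Its log2 levels were -1.11, -0.98, -1.30 and -0.83, a mean of -1.06 ± 0.20 and a 1.39-fold range. The arrays lay close together, and the software's error was near 10% of the signal. The EST probe of Camp gave 3.79, 14.2, 6.77 and 6.30 units and was not well above background on any array, although the software's weaker flag, positive and significant, was set on 3. Both probes carry the same gene name, but the coordinates of the EST probe run opposite to the gene. By its coordinates the EST probe does not read the strand that the mRNA probe reads. Its low signal is therefore not a second measure of Camp mRNA. Requiring every probe of a gene would leave Lcn2 and Mpo as the only members called detected, with Camp lost through this EST probe.

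Myeloperoxidase was close to the detection limit and flat in signal: 43.2, 38.4, 43.1 and 40.3 units, a 1.12-fold range. The software's error on each of these signals was 5.76 to 6.31 units, larger than the whole range. After division by the 75th percentile the log2 levels were -4.93, -5.28, -4.77 and -4.57 (mean -4.89 ± 0.30), a 1.63-fold range, where the scale itself ranged 1.55-fold. For a dim probe the background correction also sets the level: normexp moved the mean of Mpo to -3.45.

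The calprotectin genes were at or below the limit. The mRNA probe of S100a8 gave 31.6, 46.0, 14.4 and 33.2 units, with replicate 3 not well above background and the other arrays above it. Its log2 levels were -5.38, -5.02, -6.36 and -4.85 (mean -5.40 ± 0.67), and the error was 14.2% to 34.6% of the signal. With the weaker flag, with detection on at least 2 arrays, or without replicate 3, S100a8 would also be called detected. The EST probe of S100a8 gave 4.06 to 5.17 units, below the 95th percentile of the negative controls on every array, and the software had replaced each of these signals by a floor. S100a9, the partner subunit, gave 5.58, 12.1, 4.68 and 5.11 units. It was not well above background on any array, and the positive and significant flag was set on replicates 1 and 2. Lactoferrin gave 3.67, 4.11, 4.33 and 4.55 units, a floor on every array, so Ltf was not detectable at this signal.

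Variation between replicates was compared across the 19400 probes detected on all arrays. An F test set each probe's variance against a prior that follows mean signal and was fitted with limma. It is called limma's F test here. At a Benjamini-Hochberg adjusted p of 0.05, 33 probes passed (0.17%), standing for 15 named genes. Lcn2 is among them, which is how it came to be chosen, so nothing further is read from its call. Its range was the 4th largest of 10353 named genes detected on all arrays, where the median range was 1.19-fold. Its SD of 1.38 compares with a median SD of 0.08 over the 1000 probes of nearest signal. The SD of Camp was 0.20 against a median of 0.11 over its 1000 neighbours, of which 87.2% had a smaller SD, and that of Mpo was 0.30 against 0.25, with 65.8% smaller. Neither Camp (adjusted p = 0.95 by limma's F test) nor Mpo (adjusted p = 1) passed. The call of Lcn2 depends on replicate 3: without it no probe passed limma's F test, 1123 had an unadjusted p under 0.05, and Lcn2 had an adjusted p of 0.068 with a range of 2.30 (log2). The call was also lost with spike-in scaling and when the prior left out the robust step or the trend with mean signal.

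**Figure D2:**
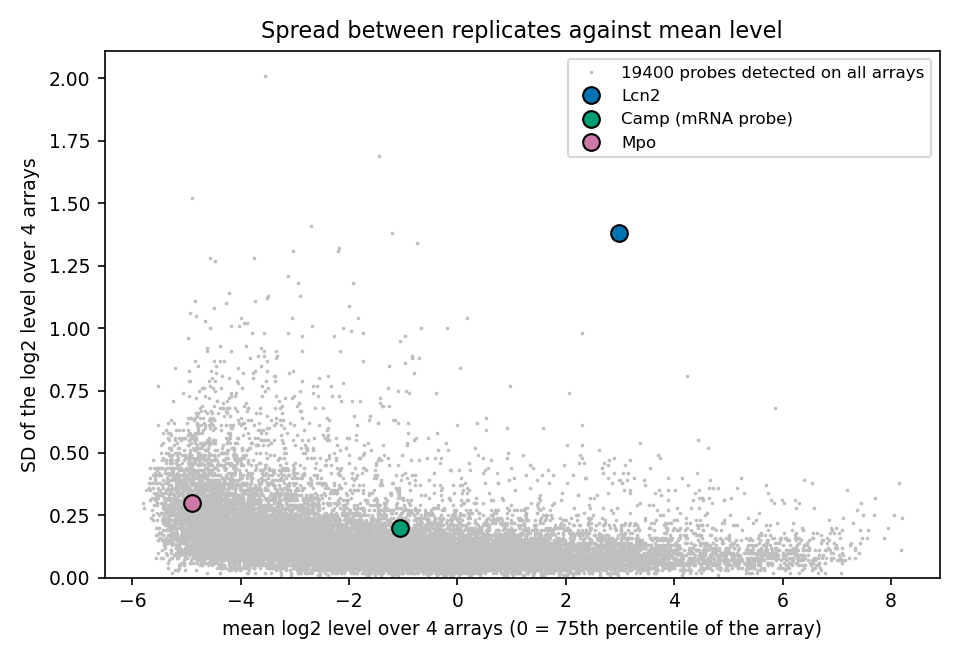
SD of the log2 level over 4 arrays against the mean log2 level (0 is the 75th percentile of the array) for the 19400 probes detected on all arrays, grey, with Lcn2, Camp and Mpo marked. Lcn2 (mean 2.99, SD 1.38) stands far above probes of like level, while Camp (SD 0.20) and Mpo (SD 0.30) lie within the grey cloud.

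The ranking of the arrays was shared by some of the members. By level, replicate 3 was lowest for Lcn2, followed by 1, 2 and 4. The mRNA probes of S100a8 and Camp had the same ranking, with ranges of 2.84-fold and 1.39-fold against 6.94-fold for Lcn2. In processed signal, before scaling, Lcn2 and S100a8 ran 3, 1, 4, 2 from low to high and Camp 3, 4, 1, 2. The shared ranking therefore depends on the scale. The software's error was about 10% of the Camp signal on each array, so its neighbouring arrays are not clearly separated. Mpo ranked the arrays otherwise, with replicate 2 lowest. Of the 10353 named genes detected on all arrays, 616 (5.95%) had the ranking of Lcn2, where equal frequency of all 24 rankings would give 4.17%. With normexp the range of S100a8, whose replicate 3 was below the detection limit, was 1.45-fold. The ranking held for Lcn2, S100a8 and Camp with the median of detected probes, with quantile normalization and with normexp. These settings lay close to the main scale, with median shifts of -0.03 to 0.02 on any array, so they could hardly change it. With spike-in RNA as the scale the ranking did not hold. Lcn2 ran 3, 1, 4, 2 from low to high, with a 7.96-fold range, and S100a8 and Camp ran 3, 4, 1, 2. Mpo ran 4, 3, 2, 1. That scale moved the median of all probes by 0.40, 0.39, -0.20 and -0.59 on replicates 1 to 4. Under it replicates 2 and 4 were still the high arrays for Lcn2, at 4.37 and 3.78 against 2.46 and 1.37.

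A measure that no array-wide scale can move is the difference between 2 profiles once a common shift per array cancels, so likeness was taken as the root mean square difference of levels, each centred on its own mean over the 4 arrays. By it Camp lay at 1.03 from Lcn2, where the median gene lay at 1.19, and 4.53% of genes lay closer. Mpo lay at 1.24, with 76% closer. No distance is given for S100a8, because its replicate 3, which sets its range, was not well above background. Part of this measure is amplitude, so a gene that does not vary at all lies near that median. Between Camp and Mpo it was 0.30. It is a description over 4 arrays, with no test.

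Cox6a2 and Itgam were already known to vary between these arrays. The 6 named genes closest to Lcn2 among those detected on all arrays were Cox6a2, Upp1, Slpi-ps2, Cda, Itgam and Armcx4, at 0.344 to 0.658. Cox6a2, the muscle-type subunit of cytochrome c oxidase, lay at -2.60, -1.32, -2.99 and -0.93, with both of its probes detected. Upp1, uridine phosphorylase, lay at -4.47, -3.36, -4.99 and -2.75. Both were high on replicates 2 and 4, as Lcn2 was, with ranges of 4.16-fold and 4.74-fold. Cda, cytidine deaminase and like Upp1 an enzyme of pyrimidine salvage, spanned 3-fold, with replicate 1 slightly below replicate 3. Only 1 of its 2 probes was detected. Itgam, the alpha chain of the integrin CR3 of macrophages and granulocytes, lay at -1.42, -0.56, -1.59 and -0.03, with 3 of 3 probes detected. Slpi-ps2 spanned 3.68-fold, with 1 of 2 probes detected. By its symbol it is a pseudogene copy of Slpi, and whether its probe also binds Slpi RNA was not tested. On replicate 3 Cda and Slpi-ps2 lay at -5.13 and -5.40, near that array's lowest level called well above background, -5.949. Slpi, a secreted antimicrobial protease inhibitor, was left out of the search because replicate 3 was not well above background, and lay at -4.90, -3.55, -5.87 and -3.12. With spike-in scaling replicate 4 of Armcx4 lay at -3.20, no longer above replicate 1 at -3.16, and for the other 5 genes replicates 2 and 4 stayed the higher arrays. Of the 6 genes, Cox6a2 passed limma's F test (adjusted p = 0.045) and the other 5 did not (adjusted p from 0.065 for Itgam to 0.28 for Cda). Closest to Camp were 6430548M08Rikl, Cd82 and Slc35g1, at 0.014 to 0.018. Closest to Mpo were Hs3st3a1, Ptgdr and Akr7a3, at 0.031 to 0.035.

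**Figure D3:**
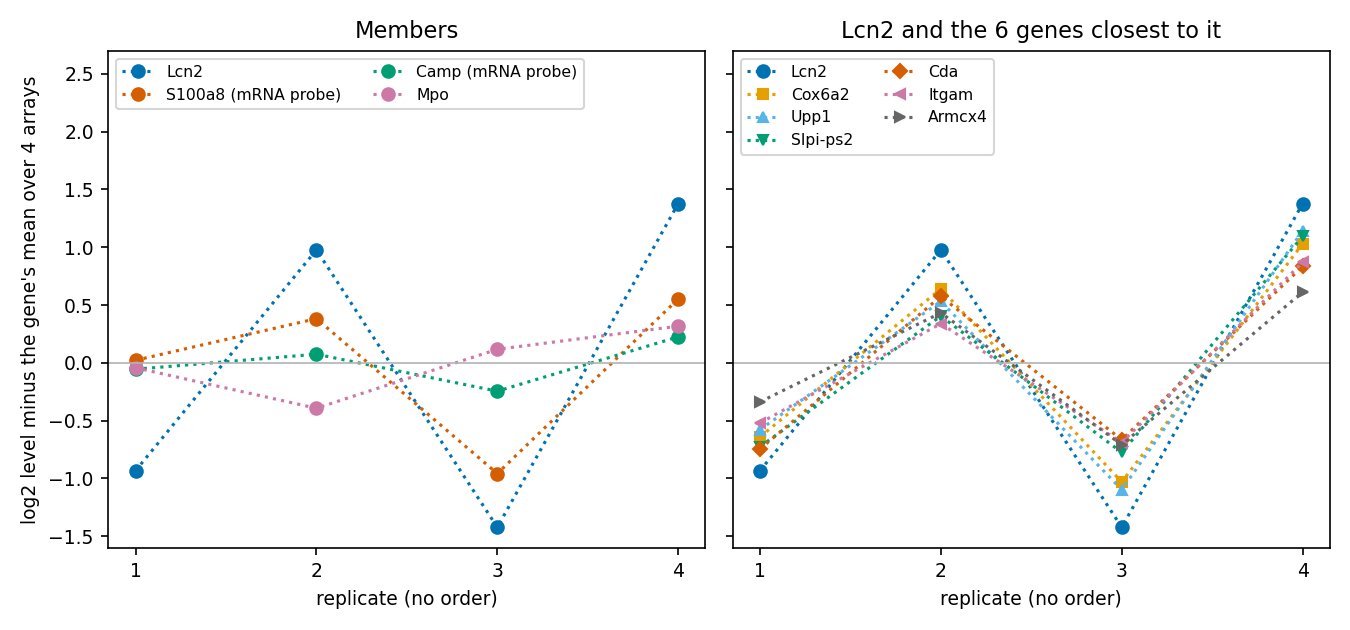
Log2 level minus the gene's own mean over the 4 arrays, by replicate; dotted lines only join the points of a gene, and replicates have no order. Left, the 4 members with a signal above background on at least 3 arrays. Lcn2 runs from -1.42 to 1.37. On this scale S100a8 and Camp rank the arrays as Lcn2 does, over smaller ranges. Mpo does not, but its processed signals differ by less than their error and its ranking changes with spike-in scaling. Right, Lcn2 with the 6 genes closest to it, all low on replicates 1 and 3 and high on 2 and 4 on this scale; with spike-in scaling Armcx4 is not.

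The promoter of Lcn2 is shown because Lcn2 was the member that differed between arrays and its known control runs through NF-kB and C/EBP factors. RefSeq promoter windows, 250 bases before to 50 after the start on GRCr8, matched 5 of the 6 members; S100a8 had no entry. The window of Lcn2, at chr3:36081731-36082030 on the minus strand, reads 5′ to 3′ with 2 pattern matches in capitals:
Lcn2 promoter: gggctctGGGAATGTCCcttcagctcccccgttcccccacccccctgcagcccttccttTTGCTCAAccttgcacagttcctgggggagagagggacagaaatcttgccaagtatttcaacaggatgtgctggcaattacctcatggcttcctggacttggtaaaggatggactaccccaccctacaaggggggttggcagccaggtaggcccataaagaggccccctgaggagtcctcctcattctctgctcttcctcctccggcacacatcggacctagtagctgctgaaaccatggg
The capitals mark GGGAATGTCC, which fits the NF-kB-like pattern GGGAANNNCC and begins at position -243 relative to the start, and TTGCTCAA, which fits the C/EBP-like pattern TTGCNNAA at -191. Each pattern was searched on both strands; they do not overlap here. The first occurs in 6.01% and the second in 10.6% of 33469 promoter windows. Neither was in the windows of S100a9, Camp, Ltf or Mpo. A match is a description of letters, and binding was not measured.

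Genes that surround the members in their pathways were counted on 10 lists, which hold 122 genes on the array, 56 of them (45.9%) detected on all arrays against 54.9% of all named genes; apart from the members it was 53 of 116 (45.7%). Of these 53 genes, 0 passed limma's F test after adjustment, where 0.17% of all probes tested did. An unadjusted p under 0.05 was found for 10 of them (18.9%), against 6.5% of all probes tested. The lists were chosen with earlier results of these data known, so these shares are a description. They also set genes, each by its brightest detected probe, against probes.

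Detection was 28.6% on the primary granule list and 42.9% on the secondary and tertiary list, members included, against 54.9% of all named genes. Of 7 primary granule genes on the array, Mpo and Ctsc, the protease that activates the granule serine proteases, were detected (Ctsc at 2.32 ± 0.11). Elane, Prtn3, Ctsg, Bpi and Prss57, the proteases and bactericidal proteins stored with myeloperoxidase, were detected on no array. Of 14 secondary and tertiary granule genes, 6 were detected: Lcn2, Camp, Mmp9, Cybb, Cyba and Slc11a1. Mmp9, the tertiary granule gelatinase, lay at -1.66, -1.08, -1.98 and -1.30 and was lowest on replicate 3, as Lcn2 was. Cybb and Cyba, subunits of the NADPH oxidase, and the metal transporter Slc11a1 are also macrophage genes, at -0.97 ± 0.22, 6.55 ± 0.03 and 1.26 ± 0.26. Ltf, Ngp, Mmp8, Olfm4, Cd177 and Chi3l1 were detected on no array, and Hp and Pglyrp1 on 3.

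Among 12 neutrophil markers, 10 were not detected on all arrays and 2 were (16.7%), against 54.9% of all named genes. Cd177, Csf3r, Cxcr2, Mmp8, Ngp, Elane, Prtn3, Ctsg and Gfi1 were not detected on any. Of all named genes, 37.7% were likewise detected on no array. Cxcr1 (1.05, 1.07, 1.26 and 1.03 on replicates 1 to 4) and Cebpe (-0.68 ± 0.05) were detected, and Padi4 was on replicate 2 only. None of the 10 epithelial markers was detected on all arrays, against the same 54.9%. Of 8 markers of mast cells, basophils and eosinophils 1 was (12.5%), Hdc at -4.30 ± 0.44. Of 5 erythroid markers 2 were (40%), Hba-a1 and Klf1. Fewer cells making a transcript and less of it per cell cannot be told apart in these bulk samples.

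In the families of calprotectin, Lcn2 and Mpo the shares detected were 42.9%, 31.2% and 40%, against 54.9% of all named genes. Of 14 S100 genes, 6 were detected: S100a1, S100a4, S100a6, S100a10, S100a11 and S100a13. S100a4, S100a10 and S100a11, calcium-binding proteins of many cell types, lay at 3.47 ± 0.08, 3.57 ± 0.13 and 3.24 ± 0.10, with ranges of at most 1.21-fold. S100a6 lay at -0.09, 0.47, 0.09 and 1.03, high on replicates 2 and 4, and did not pass limma's F test (adjusted p = 0.12). S100a1 and S100a13 lay at -5.06 ± 0.31 and -2.82 ± 0.16. Beside the members, S100a5 was detected on 2 arrays and S100a3, S100a16, S100b, S100g and S100z on none. Of 16 lipocalin genes, 5 were detected: Lcn2, Lcn5, Lcn12, Apom and C8g. Lcn12 (-2.18 ± 0.20), Apom (-4.09 ± 0.07) and C8g (-1.35 ± 0.08) spanned 1.13-fold to 1.35-fold, and Lcn5 (-3.81 ± 0.54) spanned 2.37-fold with replicate 3 lowest. Lcn10 and Orm1 were detected on 2 arrays, and Lcn1, Lcn6, Lcn8, Lcn9, Ptgds, Apod, Rbp4, Ambp and Obp3 on none. Of 5 haem peroxidases, Mpo and Lpo (-4.51 ± 0.39) were detected, Epx was on 1 array, and Pxdn was on none.

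Of 12 receptors and partners of these proteins, 7 were detected (58.3%), near the 54.9% of all named genes. Slc22a17, a receptor for lipocalin 2, lay at 1.38 ± 0.11, and Bdh2, an enzyme linked to mammalian siderophore synthesis, at -2.55 ± 0.18. Tlr4 and Ager, both receptors for calprotectin, lay at -0.98 ± 0.29 and -4.38 ± 0.12. Lrp2, Mc4r, Itln1, Fpr2 and P2rx7 were not detected on any array; Lrp2 (megalin) also takes up lipocalin 2, and Fpr2 is a receptor for cathelicidin.

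The factors and inducers known to act on these genes were detected at 63.6% and 81.2%, against 54.9% of all named genes. Of 11 granule gene transcription factors 7 were detected, with Cebpb at 4.05 ± 0.11, Cebpd at 0.68 ± 0.08 and Cebpe, which drives secondary granule genes in granulocyte precursors, at -0.68 ± 0.05. These C/EBP genes spanned 1.09-fold to 1.20-fold, and the detected factors as a whole 1.08-fold (Cbfb) to 1.26-fold (Runx1). Gfi1 and Lef1 were detected on no array, Cebpa on 1 and Klf5 on 3. Of 16 known inducers of Lcn2, with their receptors and signalling, 13 were detected and Il6, Il17a and Il1r1 were not. Il1a lay at 0.74, 0.71, 0.95 and 0.32, Il1b at 2.56, 2.59, 2.58 and 2.15, and Tnf at 0.90, 1.03, 0.77 and 0.98. Il1a and Il1b were lowest on replicate 4, which was among the high arrays for Lcn2, and Tnf differed little between arrays. Whether any of these factors or inducers bears on the level of Lcn2 was not tested. The median range of the detected inducers was 1.18-fold, next to 1.19-fold for all named genes.

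Of 20 acute phase genes and targets of NF-kB or IL-17, 8 were detected on all arrays (40%), against 54.9% of all named genes. On some arrays 5 more were detected, which were Orm1, Hp, C3, Nos2 and Slpi. With detection on at least 2 arrays 13 of the 20 would be called, where 11185 of the 18857 named genes are. With the weaker flag it would also be 13, where 12357 named genes are, so the low share depends on the rule. Ptx3, Lbp, Cxcl1, Ccl20, Steap4, Ptgs2 and Serpina3n were detected on no array. Il1rn, the interleukin 1 receptor antagonist, lay at 2.87, 3.29, 2.57 and 3.40, a 1.77-fold range (adjusted p = 0.18 by limma's F test). It had the array ranking of Lcn2, but not with spike-in scaling, where replicate 4 fell below replicate 1. Of those on some arrays, the complement gene C3 lay at -6.24, -4.73, -7.59 and -5.12 and Nos2, the inducible nitric oxide synthase, at -6.96, -5.83, -7.08 and -5.11. Both were higher on replicates 2 and 4 and near the limit of detection, so they had no variance test. Lrg1 (4.42 ± 0.21), Cp (-2.73 ± 0.32), Cfb (-1.57 ± 0.15), Zc3h12a (-2.08 ± 0.12), Socs3 (-2.85 ± 0.22), Sod2 (1.47 ± 0.16) and Csf3 (-2.88 ± 0.20) spanned 1.22-fold to 1.71-fold. Of 14 other antimicrobial effectors, lysozyme Lyz2 (6.67 ± 0.06) and Irgm (-2.30 ± 0.12) were detected (14.3%, against the same 54.9%). Hamp and Slpi were detected on 3 arrays and Nos2 on 2. The defensins Np4, Defa5, Defb1 and Defb4 were detected on no array, nor were Bpi, Rnase4, Reg3g, Wfdc18 and Acod1.

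**Figure D4:**
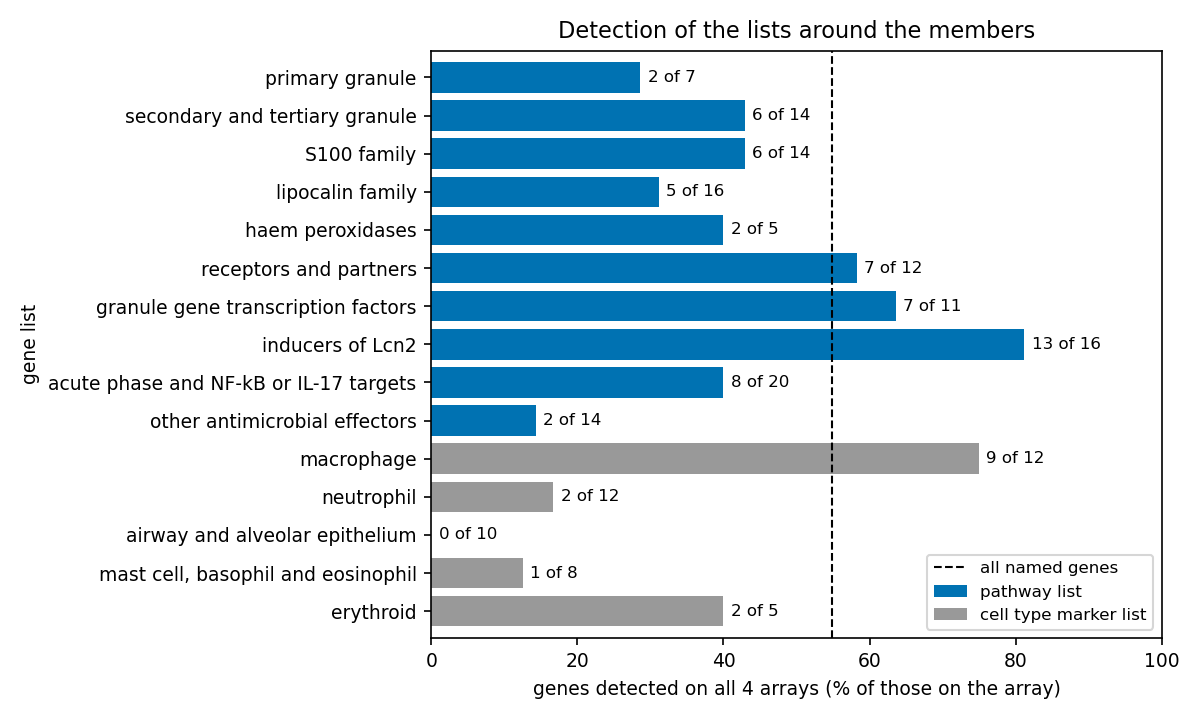
Share of genes detected on all 4 arrays (percent of those on the array) for 10 pathway lists, blue, and 5 cell type marker lists, grey, with the counts beside each bar; the dashed line is the 54.9% of all named genes. Granule, lipocalin, S100, peroxidase and antimicrobial lists lie below the line, and inducers of Lcn2 (13 of 16) and macrophage markers (9 of 12) above it.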

How the data were processed

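Per the labels' protocols, 100 ng of RNA per sample (RIN above 7.5) gave Cy3-labelled cRNA for 1-colour rat arrays. Per the submitters' processing notes, the scans went through Agilent Feature Extraction 11.0.1.1. The deposited values are fluorescence intensity per spot on a linear scale; the file headers show that the software removed background but did no scaling across arrays. Mean and local background intensity served normexp. Deposited p-values and flags of detection and outliers were used as given, and 402 to 615 flagged spots per array were left out. No spot was saturated.

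To get a level, log2 processed signals of the 58717 non-control spots were shifted so that their 75th percentile is 0 on each array, and repeat spots were averaged. A probe was detected when over 0.5 of its spots were well above background on all arrays. A gene takes its brightest detected probe, or its brightest probe where none was. Names came by accession (23863 probes), symbol (5124) or older symbol (351) from RefSeq's GRCr8 table, used for names and strand, and 16260 probes stayed unnamed. Limma 3.58.1 in R 4.3.3 fitted an intercept per probe, and its residual variance was compared with a robust, signal-dependent prior. In a simulation of 19400 probes on 4 arrays, each probe's SD was drawn around the prior, and 200 probes had their own SD multiplied. The test called 0% of these at a factor of 4 (1 false call) and 63.5% at 8 (4 false calls). At 16 it called 90% (8 false calls), so it misses smaller differences. Other steps ran in Python 3.11.15 with pandas 2.3.3 and numpy 2.4.6.

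The members and all lists were chosen with earlier results of these data known. The genes named are every member, with every probe; every gene of short lists (at most 6 detected), otherwise the first 4 in list order and those not detected on all arrays; list genes that passed the variance test; the 6 genes most like Lcn2 and 3 most like each other member detected on all arrays. Further list members, such as Il1rn and Lrg1, were named after their values were seen. A gene that the rule names is not reported here. Azu1, S100a14, Myb and Ang1 were not matched to a probe. Alternatives were other scalings (spike-in, detected median, quantile), normexp (offset 50), the weaker flag, at least 2 arrays, every probe, flagged spots kept, no filter, no robust step, no trend, a threshold of 0.01 and each array left out.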

Additional observations from a re-analysis of the deposited data

Results flagged for a closer look

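Of 44 genes examined for an array far from the other 3, 3 met Dixon's 95% criterion and chance alone would give 2.2, about 1 in 20. Ctsc was highest on replicate 1, at 2.49 against 2.25 to 2.28 on the others, with a gap of 0.893 of its range. For Il1b the low array was replicate 4, at 2.15 where the rest lay between 2.56 and 2.59, with a gap of 0.930. Synpo2l, examined beside S100a8, whose replicate 3 was not well above background, was lowest on replicate 3, at -5.52 against -4.34 to -4.14, with a gap of 0.852. No member met the criterion: Lcn2 had 2 arrays high and 2 low.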

How the results depend on the processing

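Under other settings the count of probes past the variance test moved from 33 to 50 with the median of detected probes as scale, 270 with normexp, 1121 with no filter on dim probes, 1 with spike-in scaling, and 0 with no robust step, with no trend, or at a threshold of 0.01, where 1026, 1016 and 1261 probes had an unadjusted p under 0.05 by limma. Leaving out each array gave 0 to 75: 75 without replicate 1, 47 without 2, 0 without 3 and 52 without 4. Lcn2 was among the probes past the test under 8 of 13 alternatives. The 5 where it was not were spike-in scaling, no robust step, no trend, a threshold of 0.01 and without replicate 3. Since Lcn2 was chosen by its spread on these arrays, this count is a description. The range of Lcn2 stayed between 6.62-fold (quantile) and 7.96-fold (spike-in) under the scalings. Members detected were 3, or 4 with the weaker flag, with at least 2 arrays or without replicate 3, and 2 with every probe. With the weaker flag the acute phase list had 13 of 20 genes detected, the lipocalin list 9 of 16 and the other antimicrobial list 5 of 14. With at least 2 arrays these lists had 13, 7 and 5. All named genes detected were 12357 and 11185 under these rules, from 10353. With every probe the primary granule list had 1 of 7. The mean level of Mpo was -3.45 with normexp. The causes were not tested. No paired analysis was possible because there is only 1 group of samples. Depth here is signal over background: S100a8, S100a9, Ltf and Mpo lie at or near the limit, and a level there has little precision.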

Other observations

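Epx, eosinophil peroxidase and a relative of Mpo, was detected on replicate 3 alone, at -3.68 against -8.60, -8.63 and -7.87 on replicates 1, 2 and 4. Padi4, the histone citrullinating enzyme of neutrophils, was detected on replicate 2 alone, at -5.45 against -8.34, -7.83 and -7.69 on replicates 1, 3 and 4. Each rests on 1 probe. Klf5, a transcription factor, lay at -5.88, -5.64, -6.92 and -4.87, with the array ranking of Lcn2, and was detected on 3 arrays.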
